A study of Mus musculus with 48 samples.

Results

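The comparison described here asks, for each gene of the mouse lung, whether the change brought by mainstream cigarette smoke differed between obese and regular weight animals. It is the interaction of diet and smoke, taken as the smoke response of obese animals minus that of regular weight animals, on a log2 scale. All 12393 genes measured were tested over 32 of the 48 arrays of the study, and 35 genes (0.282%) were called at an adjusted p below 0.05 (limma, Benjamini-Hochberg adjustment over all genes, two-sided). Of these, 27 (0.218%) had an interaction above 0 and 8 (0.0646%) had one below 0. A total of 25 genes (0.202%) also passed a 1.5-fold interaction, and 1365 genes had an unadjusted p below 0.05.

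All animals were male C57BL/6 mice bought at 13 weeks of age and aged 15 weeks when exposure began. The regular weight animals (RW) ate a standard chow with about 5% of its energy as fat, and the diet-induced obese animals (DIO) ate a diet with 60% of its energy as fat from 6 weeks of age, for 9 weeks before exposure. They breathed filtered air as sham controls (SC) or mainstream smoke (MS) through nose-only inhalation, for 5 hours a day and 8 exposures over 2 weeks, given as 5 days, a pause of 2 days and 3 further days. Lungs were taken on the day after the last exposure, and each of the 4 groups, RW-SC, DIO-SC, RW-MS and DIO-MS, held 8 animals with 1 Affymetrix array each. The labels tie the weeks of high fat diet to a study of lipopolysaccharide lasting 4 days, and no label gives lipopolysaccharide as a treatment of these groups. Body weights of single animals were not used here. The lung genes Sftpc and Scgb1a1, of alveolar type 2 and club cells, had group means of 15.06 to 15.09 and 15.16 to 15.20, near the top of the scale of log2 signals, which ran from 2.5 to 15.27.

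The genes that interact come from systems with well known roles. Cytochrome P450 1A1 oxidizes polycyclic aromatic hydrocarbons of smoke and is induced through the aryl hydrocarbon receptor. Heat shock proteins are chaperones induced by the factor HSF1 when proteins unfold. MHC class II molecules present antigen to helper T cells, and their genes are switched on together by the transactivator CIITA. Serum amyloid A, haemopexin and ceruloplasmin are acute phase proteins, and Nr1d1 and Dbp are rhythmic genes of the circadian clock.

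Before the results, 4 arrays stood apart. The mean correlation of DIO-SC-3, DIO-SC-7, DIO-MS-1 and DIO-MS-6 with the other arrays lay between 0.952 and 0.972, against 0.985 to 0.990 for the other 28. A list score is the mean, over the genes of a list, of the deviation of an array from the mean of each gene over the 32 arrays. DIO-SC-3 had a score of 5.03 for skeletal muscle markers and 4.68 for squamous epithelium markers, and DIO-SC-7 had 4.63 for thymocyte markers and 3.81 for brown fat markers. DIO-MS-1 and DIO-MS-6 had scores of 3.06 and 2.88 for interferon response genes, where the other 6 DIO-MS arrays lay below 0. For the 35 genes, an interaction call that changes in a fit to the 28 other arrays is given with both values. Other calls and counts are those of the fit to 32 arrays unless another fit is named, and some of them change. In a fit without the 4 arrays 101 genes (0.815%) were called, among them 30 of the 35, all 30 with the same sign. The other 5, Cp, Clec4a2, Haao, Btk and Cd74, were called only with the 4 arrays. The spread of a gene in bulk lung has more than 1 source, and fewer cells of a type cannot be told apart from less RNA per cell.

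Most interacting genes were called for a difference between the diets in air and not for one in smoke. An interaction is by construction the diet difference in smoke minus the diet difference in air, so these classes describe its parts and add no independent test. Of the 35 genes, 27 were called for the difference in air alone. Over all genes 629 (5.08%) were called in air, whether or not they were called in smoke. The difference in smoke alone was called for 7 genes, Saa1, Saa3, Hpx, Cp, Nr1d1, Dbp and S100a4, and 46 of all genes (0.371%) were called in smoke, whether or not in air. Leaving out the 4 arrays, 923 genes (7.45%) were called in air and 94 (0.758%) in smoke. Sp5 was called in both, in opposite directions. Among the 27 genes the median size of the diet difference was 0.46 in air and 0.20 in smoke, and among the 7 it was 0.09 in air and 0.97 in smoke.

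A call missed in smoke does not show equal levels. Adjustment was made within each contrast and more genes were called in air. A difference of like size and error can therefore be called in air and missed in smoke. Of the 27 genes called in air alone, 15 had a 95% interval of the smoke difference that excluded 0 before adjustment. In 10 of these the smoke difference had the opposite sign to the air difference, and in 5 it had the same sign. In the fit to 28 arrays 72 of the 101 genes fell in the class of the air difference alone and 15 in that of the smoke difference alone, with 3 called in both in the same direction and 11 in neither. Sp5 was then called in smoke alone, and S100a4, Saa3 and Rasd2 in neither. When 1 array at a time was left out of the 32, 18 of the 35 genes were called in all 32 fits. The other 17 lost their call in at least 1 fit, with the same sign throughout and an adjusted p of at most 0.09. Rasd2, Crisp3 and Ccl9 were called in 29 of these fits, Fcer2a in 24, Ptpro in 22 and Pold4 in 21. Hhex and Saa3 were called in 19, Dbp and Clec4a2 in 18, Acta2 in 17, and Zbtb16 and Cd74 in 15. The fewest were 13 for Btk, 11 for Cp, 9 for Haao and 7 for Sstr2.

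**Figure D1:**
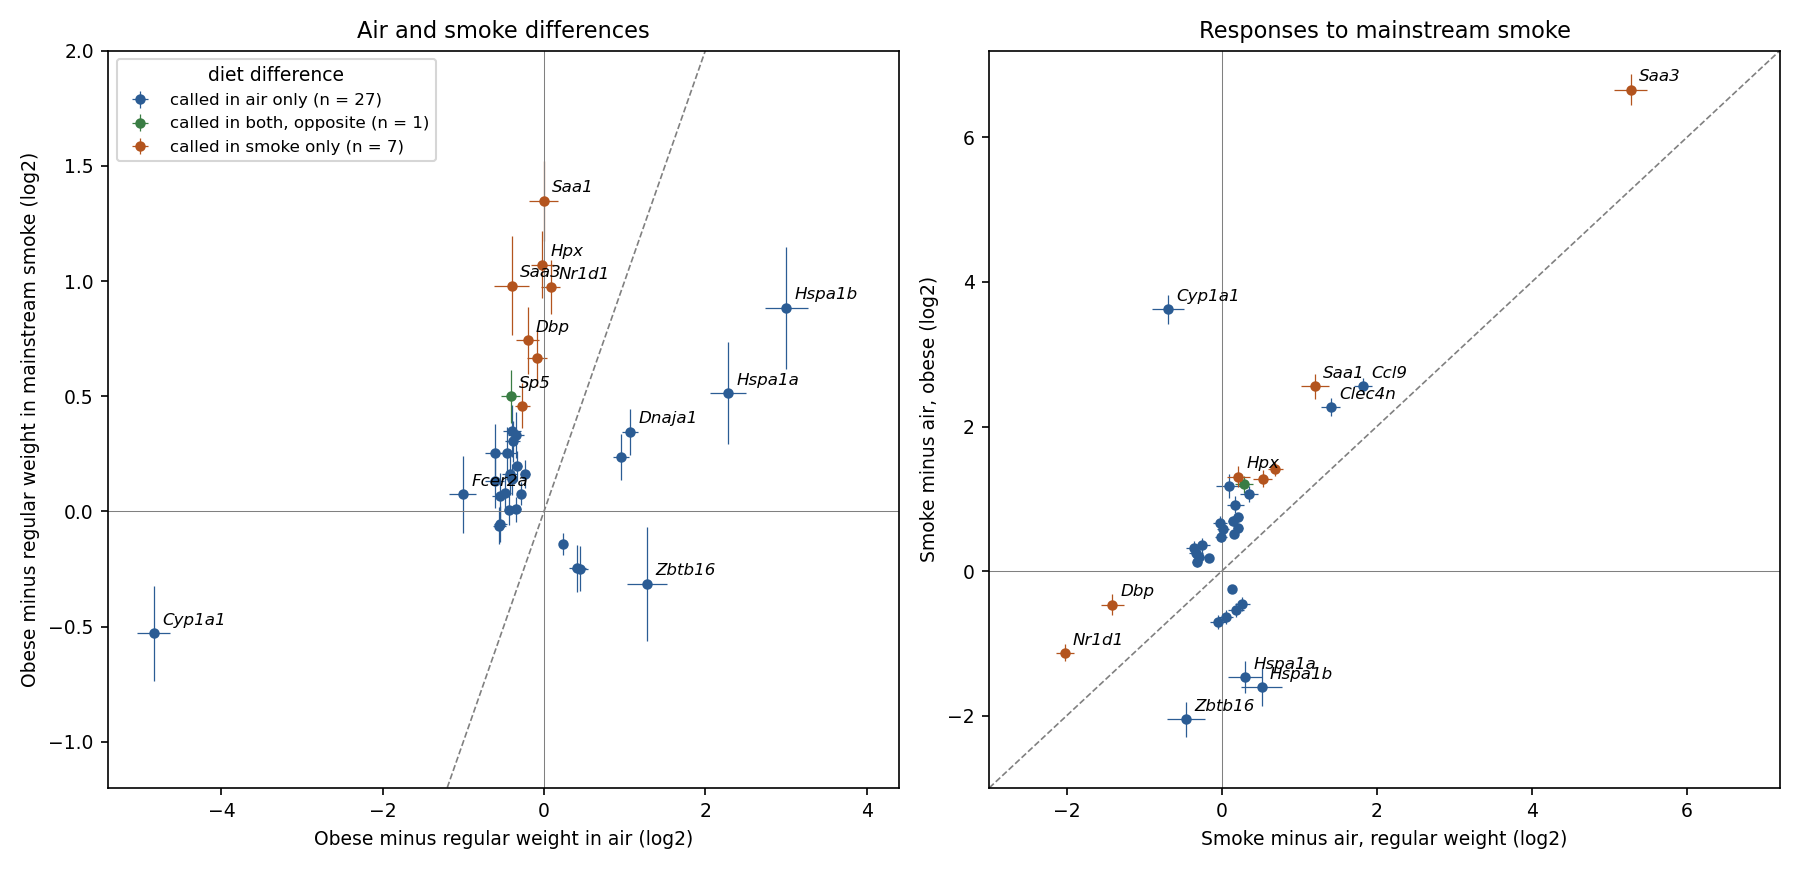
Left, the obese minus regular weight difference in air (horizontal axis, log2) and in mainstream smoke (vertical axis, log2, on a narrower scale) for the 35 interacting genes. Right, the smoke minus air response of regular weight (horizontal) and obese animals (vertical). Bars are standard errors, the dashed lines mark equality, and colours give the class. The 27 genes called in air alone spread along the horizontal axis of the left panel, from Cyp1a1 at -4.84 to Hspa1b at 3.01, and 6 of the 7 genes called in smoke alone sit above 0.5 on its vertical axis.

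Seen as responses, the smoke change was called in obese animals only for 17 of the 35 genes and in regular weight animals only for 3, Crisp3, Haao and Hhex. In 10 genes both responses were called in the same direction and the obese one was larger, and in Dbp and Nr1d1 the regular weight one was larger. Cyp1a1, Pold4 and Rasd2 were called in both diets in opposite directions. Over all genes 1200 (9.68%) were called for the response of regular weight animals and 2084 (16.8%) for that of obese animals. Leaving out the 4 arrays, these counts were 2537 (20.5%) and 1902 (15.3%).

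Cyp1a1 had the largest interaction of all 35 genes. In air its log2 signal ran from 9.16 to 10.32 in RW-SC (median 9.50) and from 4.09 to 5.10 in DIO-SC (median 4.73), so all 8 obese arrays lay far below every regular weight array. In smoke it ran from 8.62 to 9.20 in RW-MS (median 8.87) and from 7.10 to 9.04 in DIO-MS (median 8.52), and these groups overlapped. The 2 lowest DIO-MS values belonged to DIO-MS-1 and DIO-MS-6. Smoke thus went with a fall of 0.69 ± 0.20 (SE, adjusted p = 0.028) in regular weight animals and a rise of 3.62 ± 0.20 (adjusted p = 6.4e-15) in obese ones. The interaction was 4.31 ± 0.29, or 19.8-fold (limma, adjusted p = 1.1e-11, n = 8 a group), and 4.65 without the 4 arrays. The difference that was called was the one in air, -4.84 ± 0.20 or 28.6-fold lower in obese animals (adjusted p = 1.9e-17). The difference in smoke was -0.53 with a 95% interval of -0.95 to -0.11 (adjusted p = 0.33), and -0.21 without the 4 arrays (adjusted p = 0.69).

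The other genes of the same receptor gave no such call. Of 7 aryl hydrocarbon receptor targets measured, Cyp1a1 was the 1 member called, and their median interaction was 0.20 against 0.02 over all genes. In air 1 of the 7 was called lower in obese animals, against 3.53% of all genes. Without the 4 arrays 2 were called lower in air, when 7.45% of all genes were called in either direction. Cyp1b1, the related hydrocarbon-oxidizing enzyme, had medians of 7.54 in RW-SC, 7.24 in DIO-SC, 8.12 in RW-MS and 8.21 in DIO-MS. Its interaction was 0.44 ± 0.23 (adjusted p = 0.48), with a 95% interval of -0.02 to 0.91 that excludes the size seen for Cyp1a1. The NRF2 targets, which defend against oxidants, had 0 of 18 members called and a median of -0.07. Among them Nqo1, a quinone reductase, had -0.28 (95% interval -0.67 to 0.11), Hmox1, haem oxygenase, 0.05 (-0.37 to 0.47), and Gclc, of glutathione synthesis, -0.05 (-0.42 to 0.33). Fitted to 28 arrays these were 0.06, -0.19 and -0.32 and not called, so the sign turned for Nqo1 and Hmox1.

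**Figure D2:**
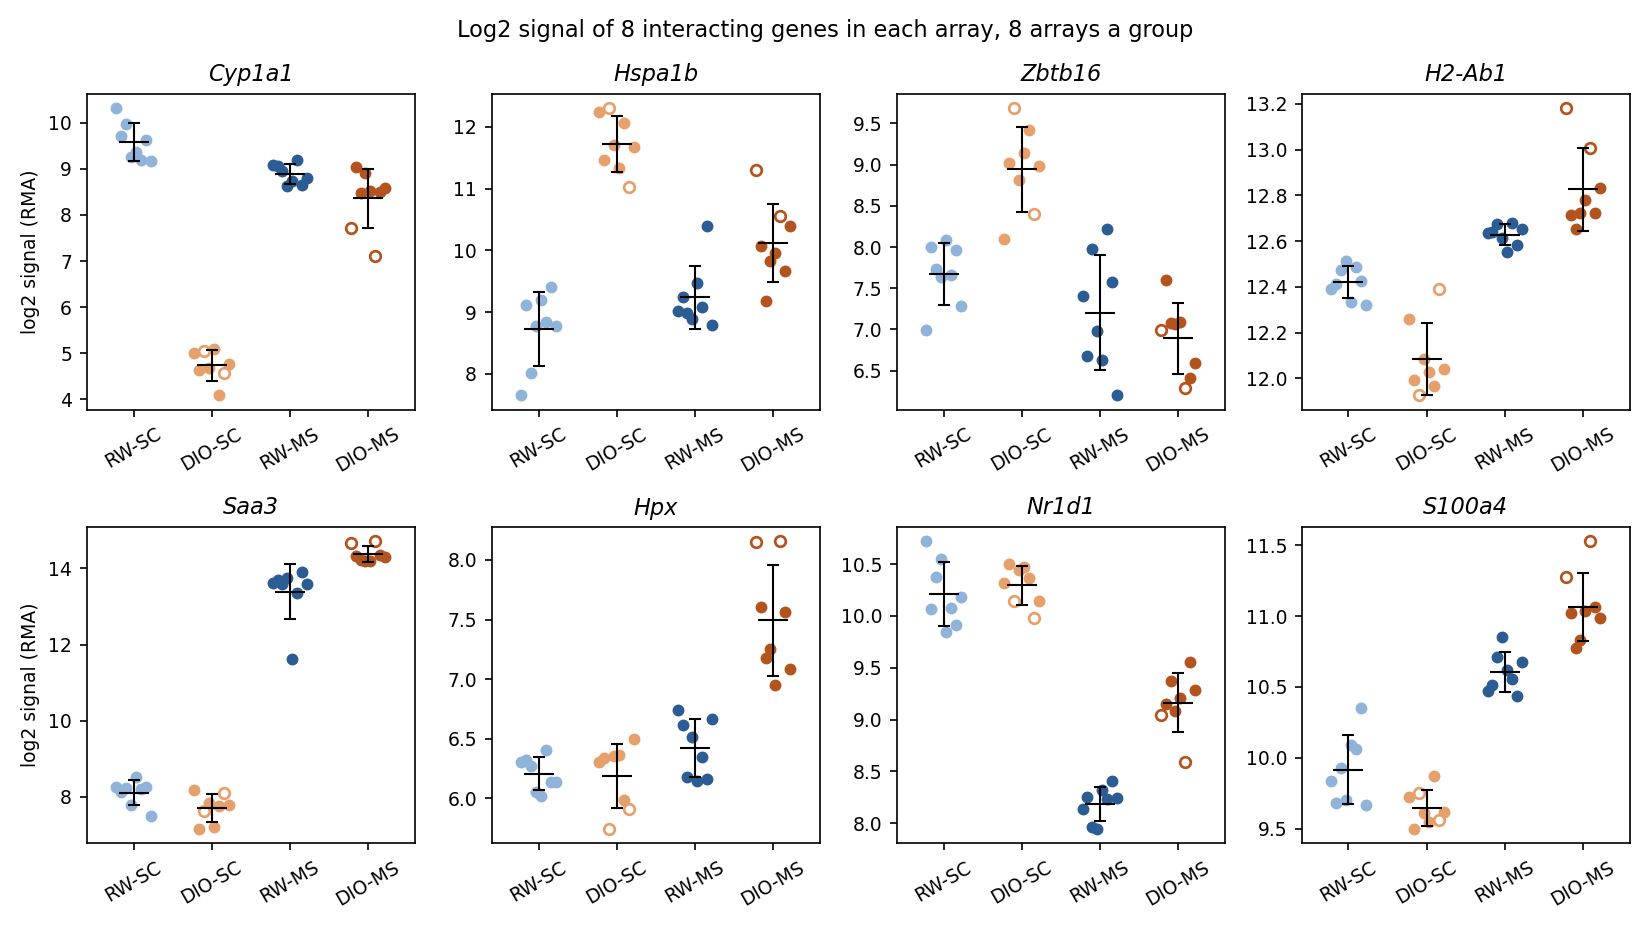
Log2 signal (RMA) of 8 interacting genes in every array, by group, with mean and SD bars and 8 arrays a group. Open circles are the 4 arrays that stood apart. Cyp1a1, Hspa1b, Zbtb16 and H2-Ab1 differ between RW-SC and DIO-SC, while Saa3, Hpx, Nr1d1 and S100a4 differ between RW-MS and DIO-MS.

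Heat shock genes were higher in obese than in regular weight lungs in air, and the gap was smaller in smoke. Of 19 members measured, 17 were called higher in obese animals in air, against 1.55% of all genes, and 4 in smoke, against 0.25%, and all 19 had an interaction below 0. Chaperones Hspa1b, Hspa1a, Dnaja1 and Chordc1 were called for the interaction, against 0.0646% of all genes in that direction. The median interaction of the list was -0.23, and -0.30 without the 4 arrays, when Hsph1, Hspd1 and Ahsa1 were called too. In obese animals 14 of 19 members fell with smoke (7.01% of all genes did) and 0 were called higher, and in regular weight animals 3 fell (4.86% of all genes did).

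Hspa1b and Hspa1a encode the stress-inducible Hsp70, in a pair of near-identical genes whose signals may mix. Hspa1b ran from 7.65 to 9.40 in RW-SC (median 8.81), 11.02 to 12.31 in DIO-SC (11.69), 8.79 to 10.39 in RW-MS (9.05) and 9.18 to 11.30 in DIO-MS (10.01). Every DIO-SC array was above every RW-SC array, while 3 of 8 DIO-MS arrays were above the highest RW-MS array, RW-MS-7. The interaction was -2.12 ± 0.37 (4.35-fold, adjusted p = 0.0076), made of 3.01 ± 0.26 in air (adjusted p = 4.5e-09) and 0.88 ± 0.26 in smoke (adjusted p = 0.17). Smoke went with a fall of 1.61 ± 0.26 in obese animals (adjusted p = 3.8e-05), while the regular weight change of 0.51 was not called (adjusted p = 0.23). Its 3 probe sets had interactions of -2.12, -2.02 and -2.20.

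Hspa1a followed the same order of groups. Its medians were 7.48 in RW-SC, 9.80 in DIO-SC, 7.77 in RW-MS and 8.21 in DIO-MS, and its DIO-SC arrays, from 8.90 to 10.82, all lay above the RW-SC arrays, from 7.2 to 7.87. The interaction was -1.77 ± 0.31 (adjusted p = 0.0076), with 2.29 ± 0.22 in air (adjusted p = 3.2e-08) and 0.51 ± 0.22 in smoke (adjusted p = 0.41). Dnaja1, an Hsp40 co-chaperone, had medians of 11.33, 12.44, 11.51 and 11.86 in RW-SC, DIO-SC, RW-MS and DIO-MS, and an interaction of -0.72 ± 0.14 (adjusted p = 0.011). Its air difference was 1.07 ± 0.10, again on 8 of 8 arrays. A dimmer probe set of Dnaja1 gave an interaction of -0.55 ± 0.14 (adjusted p = 0.086). Chordc1, an HSP90 co-chaperone, had medians of 9.49, 10.51, 9.81 and 10.03 in the same order and an interaction of -0.72 ± 0.14 (adjusted p = 0.011). Its air difference was 0.96 ± 0.10 and its smoke difference 0.24 (95% interval 0.04 to 0.44). Among genes outside the list, Cirbp, a protein induced by cold, was lower in obese animals in air (-1.16 ± 0.14, adjusted p = 1e-06) and also in smoke (-0.88 ± 0.14, adjusted p = 0.0006), with an interaction of 0.28 (adjusted p = 0.63). Its interaction in the fit to 28 arrays was 0.50 (adjusted p = 0.25), and the regular weight response of -0.38 was called (adjusted p = 0.019).

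Because Hsp70 and Dnaja1 moved together, their promoters are shown for the heat shock element, the letters of the HSF1 site. The sequences are RefSeq entries on assembly GRCm38.p6, and capitals mark GAANNTTC, searched on both strands in the 250 bases before the start. The stretches of Hspa1b (chr17:34959319-34959378, minus strand), Hspa1a (chr17:34972237-34972296, minus strand) and Dnaja1 (chr4:40722328-40722387, plus strand) cover bases -140 to -81:
Hspa1b: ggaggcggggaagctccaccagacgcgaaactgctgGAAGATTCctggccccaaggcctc
Hspa1a: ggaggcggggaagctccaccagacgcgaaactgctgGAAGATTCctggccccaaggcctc
Dnaja1: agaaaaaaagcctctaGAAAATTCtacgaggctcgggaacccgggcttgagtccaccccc
The letters occurred in the promoters of 6.59% of the 9887 genes matched to a promoter, in 3 of 7 genes called lower and in 7 of 16 heat shock genes. Dnaja1 has more than 1 start with an entry, and the letters occurred only before the one shown. Chordc1 has an entry without the letters. The Hspa1b and Hspa1a promoters were the same at 247 of 250 positions, 98.8%. A match is a description of letters and not of binding.

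Zbtb16, a zinc finger factor that glucocorticoids induce, was also high in obese animals in air alone. It ran from 6.99 to 8.08 in RW-SC (median 7.70), 8.10 to 9.69 in DIO-SC (9.0), 6.2 to 8.22 in RW-MS (7.19) and 6.29 to 7.60 in DIO-MS (7.03). The obese arrays were all above the regular weight arrays in air, and within their range in smoke. The interaction was -1.59 ± 0.35 (3.01-fold, adjusted p = 0.033), with 1.27 ± 0.25 in air (adjusted p = 0.0019) and -0.31 ± 0.25 in smoke (adjusted p = 0.75). In obese animals it fell by 2.05 ± 0.25 with smoke (adjusted p = 2.2e-07). A second, dimmer probe set of Zbtb16 gave -0.79 ± 0.19 (adjusted p = 0.084), and without DIO-MS-1 and DIO-MS-6 the interaction was -1.50 (adjusted p = 0.062), so neither kept the call. Zbtb16 was the 1 member called of 19 glucocorticoid receptor targets, whose median interaction was -0.26, and -0.30 without the 4 arrays, when Cdkn1a and Pdk4 were called as well. Fkbp5, a chaperone of the steroid receptor, was 0.99 ± 0.15 higher in obese animals in air (adjusted p = 8.9e-05) and 0.31 ± 0.15 higher in smoke (adjusted p = 0.49). Its interaction of -0.68 ± 0.21 was not called (adjusted p = 0.19).

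Acta2 and Mrvi1, of smooth muscle, were also called higher in obese animals in air, and were not called in smoke. In smoke both had the lower median in obese animals. The unadjusted interval of each smoke difference excluded 0, so equal levels in smoke are not shown. Acta2, smooth muscle actin, had medians of 12.65 in RW-SC, 13.14 in DIO-SC, 12.59 in RW-MS and 12.47 in DIO-MS and an interaction of -0.66 ± 0.14 (adjusted p = 0.033). A much dimmer probe set of Acta2 (mean 5.24, against 12.71 for the one chosen) gave 0.18 ± 0.15 (adjusted p = 0.74). That value was not called, so the call of Acta2 rests on the probe set chosen. Mrvi1, which relays cyclic GMP signals for relaxation, had medians of 6.2, 6.71, 6.27 and 6.07 in the same order and an interaction of -0.69 ± 0.14 (adjusted p = 0.013). Of 13 smooth muscle markers 6 were called higher in obese animals in air (11 in the fit to 28 arrays), against 1.55% of all genes. With smoke 12 fell in obese animals, against 7.01% of all genes, and 0 were called in regular weight animals. Their median interaction was -0.52, and -0.38 without the 4 arrays. Cardiac muscle markers, of heart and pulmonary vein tissue, had a median interaction of -0.98 (-0.78 without the 4 arrays) and 0 of 13 called. Their scores ran from -1.59 to 0.81 in RW-SC, -0.97 to 1.27 in DIO-SC, -1.35 to 0.64 in RW-MS and -2.10 to 0.70 in DIO-MS. DIO-MS-1 had the lowest score of its group for both lists, and the part of cardiac markers in the smooth muscle result was not tested.

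MHC class II genes were lower in obese than in regular weight lungs in air, and no such difference was called in smoke. Of 12 class II and dendritic cell genes measured, 10 were called lower in obese animals in air, against 3.53% of all genes, and 0 were called in smoke. All 12 had an interaction above 0, with a median of 0.52, and 6 were called, against 0.218% of all genes in that direction. The 6 were H2-Aa, H2-Ab1, H2-Eb1, H2-DMa, Cd74 and Ciita. In the fit to 28 arrays the median was 0.45 and 6 were called, with Ccr7 in place of Cd74. In obese animals 10 of 12 rose with smoke (9.8% of all genes did), and in regular weight animals 4 rose (4.83% of all genes did) and 2 fell.

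By group median, the transactivator and the class II genes called were lowest in DIO-SC and highest in DIO-MS. The excess in smoke was not called for any of them. The median smoke difference of the list was 0.12, and 0.05 without the 4 arrays. Ciita ran from 7.14 to 7.61 in RW-SC (median 7.32), 6.73 to 7.32 in DIO-SC (6.93), 7.09 to 7.55 in RW-MS (7.31) and 7.36 to 7.97 in DIO-MS (7.54). Of the DIO-SC arrays 7 of 8 lay below every RW-SC array, and 3 of the DIO-MS arrays lay above every RW-MS array. Its interaction was 0.69 ± 0.13 (1.62-fold, adjusted p = 0.0082), with -0.39 ± 0.09 in air (adjusted p = 0.01) and 0.30 ± 0.09 in smoke (adjusted p = 0.17, 95% interval 0.12 to 0.49). The response of 0.67 ± 0.09 in obese animals was called (adjusted p = 1.7e-06), and that of -0.02 ± 0.09 in regular weight animals was not.

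H2-Ab1, the beta chain of the class II molecule I-A, ran from 12.32 to 12.51 in RW-SC (median 12.42), 11.93 to 12.39 in DIO-SC (12.03), 12.55 to 12.68 in RW-MS (12.64) and 12.65 to 13.18 in DIO-MS (12.75). Its interaction was 0.53 ± 0.09 (adjusted p = 0.0076), from -0.33 ± 0.07 in air (adjusted p = 0.0019) and 0.20 ± 0.07 in smoke (adjusted p = 0.23). Both responses were called, 0.21 ± 0.07 in regular weight and 0.74 ± 0.07 in obese animals. H2-Aa, its alpha chain, had medians of 13.18, 12.90, 13.34 and 13.42 in RW-SC, DIO-SC, RW-MS and DIO-MS, and an interaction of 0.36 ± 0.07 (adjusted p = 0.013).

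The remaining class II genes called were a second beta chain, a peptide loader and the invariant chain. H2-Eb1 had medians of 12.39, 11.94, 12.55 and 12.65 in the same order and an interaction of 0.54 ± 0.10 (adjusted p = 0.0076), with every DIO-SC array below every RW-SC array. H2-DMa, which helps load peptides, had medians of 10.66, 10.19, 10.70 and 10.75 and 0.56 ± 0.11 (adjusted p = 0.011). Its smoke difference was 0.08 with a 95% interval of -0.07 to 0.24. Cd74, the invariant chain, had medians of 13.53, 13.31, 13.75 and 13.93 and 0.39 ± 0.09 (adjusted p = 0.034), and 0.34 without the 4 arrays (adjusted p = 0.072).

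The promoters of H2-Eb1 and H2-Aa, class II genes called for the interaction, are shown for the Y box that both hold, the letters CTGATTGG bound by the factor NF-Y. This motif was chosen after the values were seen. The stretches of H2-Eb1 (chr17:34305787-34305836, plus strand) and H2-Aa (chr17:34287854-34287903, minus strand) cover bases -80 to -31 in RefSeq on GRCm38.p6, and capitals mark the Y box:
H2-Eb1: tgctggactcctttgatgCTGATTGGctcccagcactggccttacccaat
H2-Aa: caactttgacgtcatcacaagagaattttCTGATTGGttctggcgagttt
On either strand the letters occurred in 5.67% of the promoters matched and in 3 of 8 genes of the class II list with an entry. They also occurred in the Hspa1a and Hspa1b promoters at base -70, genes with an interaction in the other direction. In H2-Aa the letters GAANNTTC begin at base -58 and overlap the Y box by 1 base. Other motifs searched on both strands were a longer heat shock element (0.465% of genes), GCGTG of the dioxin response element (44.7%), the interferon response element (3.35%) and the kappa B site (1.47%). Of the 23 genes called higher with an entry, 5 held GCGTG, 1 held the interferon response element and 0 held the kappa B site.

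**Figure D3:**
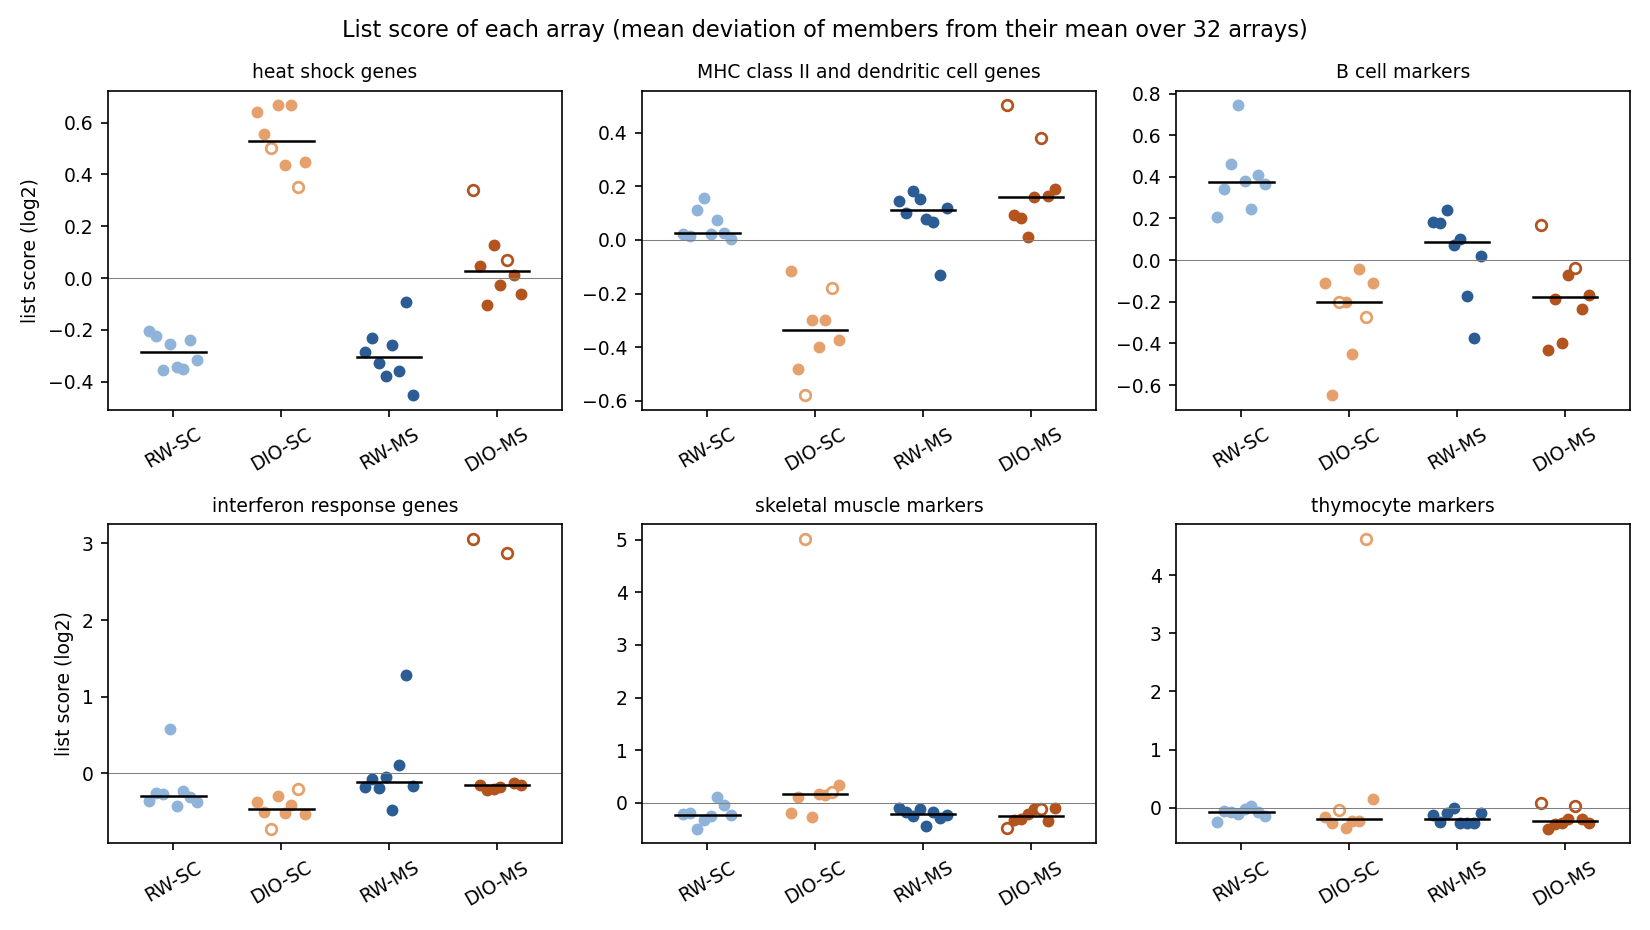
Score of each array (log2, mean deviation of members from their mean over 32 arrays) for 6 gene lists by group, with a line at the median and open circles for the 4 arrays that stood apart. Heat shock scores are highest in DIO-SC (median 0.53) and class II scores lowest there (median -0.34), while interferon, skeletal muscle and thymocyte scores are set apart by 1 or 2 arrays each.

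Genes called from B cells and myeloid cells interacted in the same direction as class II genes. Of 14 B cell markers 11 were called lower in obese animals in air (3.53% of all genes were) and 0 were called in smoke (0.371% of all genes were), with a median interaction of 0.49 (0.37 without the 4 arrays) and 1 call, Fcer2a. Fcer2a, the low affinity IgE receptor CD23, ran from 8.89 to 9.61 in RW-SC (median 9.13), 7.51 to 8.56 in DIO-SC (8.28), 9.07 to 9.60 in RW-MS (9.29) and 8.76 to 10.22 in DIO-MS (9.18). Its DIO-SC arrays were all below the RW-SC arrays, and the groups overlapped in smoke. Its interaction was 1.08 ± 0.24 (2.11-fold, adjusted p = 0.033) and 0.74 without the 4 arrays, with -1.0 ± 0.17 in air (adjusted p = 0.0003) and 0.08 in smoke (95% interval -0.27 to 0.42). A dimmer probe set of Fcer2a gave 1.13 ± 0.26 (adjusted p = 0.057).

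Other B cell genes did not share the smoke response of Fcer2a. Cd79b, of the B cell receptor, had medians of 10.14, 9.19, 9.79 and 9.24 in RW-SC, DIO-SC, RW-MS and DIO-MS. It fell by 0.50 ± 0.12 with smoke in regular weight animals (adjusted p = 0.0089) and changed by 0.01 ± 0.12 in obese ones, and its interaction of 0.51 ± 0.18 was not called (adjusted p = 0.24). Across the list 6 of 14 markers fell with smoke in regular weight animals (10 in the fit to 28 arrays), against 4.86% of all genes, and 0 in obese animals, where 1 rose. Btk, a kinase of B cells and myeloid cells, had medians of 8.38, 7.80, 8.33 and 8.29 and an interaction of 0.48 ± 0.11 (adjusted p = 0.04), and 0.37 without the 4 arrays (adjusted p = 0.12).

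The lectin genes Clec4n and Clec4a2 rose with smoke in both diets and were lower in obese animals in air. Clec4n, the fungal receptor dectin-2, ran from 8.90 to 9.53 in RW-SC (median 9.23), 8.07 to 9.11 in DIO-SC (8.51), 10.34 to 10.99 in RW-MS (10.57) and 10.49 to 11.31 in DIO-MS (10.82). All smoke arrays lay above all air arrays of the same diet. The rise was 1.41 ± 0.12 in regular weight and 2.27 ± 0.12 in obese animals, and the interaction was 0.87 ± 0.17 (1.82-fold, adjusted p = 0.016). Its diet difference was -0.61 ± 0.12 in air (adjusted p = 0.0027) and 0.26 ± 0.12 in smoke (adjusted p = 0.49). Clec4a2, an inhibitory lectin of dendritic cells, had medians of 7.46, 7.15, 7.86 and 8.04 in RW-SC, DIO-SC, RW-MS and DIO-MS. Its interaction was 0.72 ± 0.16 (adjusted p = 0.033), and 0.47 without the 4 arrays (adjusted p = 0.085). Its second, dimmer probe set gave 0.32 ± 0.15 (adjusted p = 0.45).

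Ccl9 was the 1 chemokine called of 14 CC and 6 neutrophil-attracting chemokines. Ccl9, which attracts myeloid and dendritic cells, had medians of 9.18 in RW-SC, 8.85 in DIO-SC, 11.10 in RW-MS and 11.28 in DIO-MS, with rises of 1.82 ± 0.11 and 2.56 ± 0.11. Its interaction was 0.74 ± 0.16 (1.67-fold, adjusted p = 0.031), from -0.39 ± 0.11 in air (adjusted p = 0.036) and 0.35 ± 0.11 in smoke (adjusted p = 0.22). A dimmer probe set of Ccl9 gave 0.70 ± 0.20 (adjusted p = 0.15). The other 13 CC chemokines were not called. The median of the 14 was 0.57 with all arrays and 0.18 without the 4 arrays. Ccl2, the monocyte attractant, had 0.70 ± 0.46 and 0.06 without them.

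The strong smoke response of neutrophil attractants and proteases was not called as different. Cxcl1 rose by 3.69 ± 0.26 and 4.56 ± 0.26, and Cxcl5 by 4.34 ± 0.38 and 4.66 ± 0.38, in regular weight and obese animals. Their interactions were 0.87 (95% interval 0.13 to 1.62, adjusted p = 0.35) and 0.32 (-0.77 to 1.40, adjusted p = 0.88). Fitted to 28 arrays they were 0.40 and -0.29 (adjusted p = 0.73 and 0.92), so the sign for Cxcl5 turned, and the median of the 6 neutrophil-attracting chemokines went from 0.30 to 0.10. Mmp12, the macrophage elastase, rose by 3.49 ± 0.15 and 4.21 ± 0.15, with an interaction of 0.71 (0.29 to 1.13, adjusted p = 0.15). These intervals include interactions as large as those called for other genes. RW-MS-5 was the lowest RW-MS array for Cxcl1 (7.67, next 8.49), Cxcl5 (6.61, next 7.56) and Mmp12 (9.38, next 10.19), and it stayed in the fit to 28 arrays.

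Acute phase genes were higher in obese than in regular weight lungs in smoke. Of 15 measured, 7 were called higher in obese animals in smoke (0.25% of all genes were). Lcn2 alone was called in air, lower in obese animals with a difference of -0.46 ± 0.14 (adjusted p = 0.044). Fitted to 28 arrays, 6 were called in smoke and 0 in air, so Lcn2 lost that call. With smoke 9 rose in regular weight animals and 15 in obese animals, against 4.83% and 9.8% of all genes. Without the 4 arrays 12 and 13 rose, when 20.5% and 15.3% of all genes were called in either direction. The median interaction was 0.69, and 4 were called, Saa1, Saa3, Hpx and Cp, against 0.218% of all genes in that direction. In the fit to 28 arrays the median was 0.38 and Orm2 was called in place of Cp. DIO-MS-1 and DIO-MS-6 had list scores of 1.81 and 2.02, and the other 6 DIO-MS arrays started from 0.79, above the highest RW-MS array at 0.65.

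Saa1, a serum amyloid A whose probe set can match related transcripts, ran from 5.07 to 5.90 in RW-SC (median 5.18), 4.93 to 5.56 in DIO-SC (5.30), 5.69 to 6.90 in RW-MS (6.73) and 7.15 to 8.55 in DIO-MS (7.79). The diets overlapped in air, and every DIO-MS array lay above every RW-MS array. Its interaction was 1.35 ± 0.25 (2.56-fold, adjusted p = 0.008) and 1.13 without the 4 arrays. The air difference was -0.01 (95% interval -0.36 to 0.35) and the smoke difference 1.35 ± 0.17 (adjusted p = 4e-05). A second probe set gave 1.92 ± 0.28.

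Saa3, the serum amyloid A made in inflamed tissue, had by far the larger response. It ran from 7.50 to 8.53 in RW-SC (median 8.21), 7.16 to 8.18 in DIO-SC (7.77), 11.62 to 13.92 in RW-MS (13.60) and 14.18 to 14.71 in DIO-MS (14.31). It rose 38.8-fold in regular weight and 101.1-fold in obese animals, and the interaction was 1.38 ± 0.30 (2.61-fold, adjusted p = 0.033). RW-MS-5 at 11.62 was the lowest RW-MS array, and the next was 13.36. Leaving out 1 array at a time kept the interaction between 1.13 and 1.47 and kept the call in 19 of 32 fits. The highest adjusted p among the other fits was 0.066. The smoke difference of 0.98 ± 0.21 (adjusted p = 0.031) had an adjusted p of 0.079 without the 4 arrays.

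Hpx, which binds free haem, was called in obese animals alone. It ran from 6.02 to 6.41 in RW-SC (median 6.2), 5.75 to 6.50 in DIO-SC (6.32), 6.14 to 6.74 in RW-MS (6.43) and 6.95 to 8.15 in DIO-MS (7.41), with all DIO-MS arrays above all RW-MS arrays. Its interaction was 1.09 ± 0.21 (2.13-fold, adjusted p = 0.0089) and 0.75 without the 4 arrays (adjusted p = 0.014). Cp, the ferroxidase ceruloplasmin, had medians of 11.26, 11.27, 11.79 and 12.44 in RW-SC, DIO-SC, RW-MS and DIO-MS. Its interaction was 0.75 ± 0.17 (adjusted p = 0.047) and 0.47 without the 4 arrays (adjusted p = 0.075), while its smoke difference of 0.67 ± 0.12 was called in both fits. The chosen probe set was the 1 of 7 called. The other 6 had interactions from 0.05 to 0.82, with adjusted p from 0.098 to 0.96. Lcn2, an iron-withholding acute phase protein, rose by 2.70 ± 0.14 and 3.32 ± 0.14, with an interaction of 0.62 that was not called (adjusted p = 0.19).

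S100a4, a calcium-binding protein of motile and mesenchymal cells, had medians of 9.88 in RW-SC, 9.61 in DIO-SC, 10.59 in RW-MS and 11.03 in DIO-MS. Its interaction was 0.73 ± 0.14 (1.66-fold, adjusted p = 0.0082). The smoke difference was 0.46 ± 0.10 (adjusted p = 0.021), and the air difference of -0.27 ± 0.10 was not called (adjusted p = 0.099). Both had, in the fit to 28 arrays, an adjusted p of 0.065.

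The clock genes Nr1d1 and Dbp fell with smoke in both diets, and fell less in obese animals. Nr1d1, the clock repressor REV-ERB alpha, ran from 9.85 to 10.72 in RW-SC (median 10.13), 9.98 to 10.50 in DIO-SC (10.34), 7.95 to 8.41 in RW-MS (8.24) and 8.60 to 9.55 in DIO-MS (9.18). The diets overlapped in air, and every DIO-MS array lay above every RW-MS array. It fell by 2.03 ± 0.12 in regular weight and by 1.13 ± 0.12 in obese animals, and the interaction was 0.89 ± 0.17 (1.86-fold, adjusted p = 0.0082). The smoke difference was 0.97 ± 0.12 (adjusted p = 2.7e-05) and the air difference 0.08 (95% interval -0.16 to 0.32).

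Dbp, an output factor of the clock, ran from 11.15 to 11.79 in RW-SC (median 11.64), 11.07 to 11.65 in DIO-SC (11.40), 9.71 to 10.51 in RW-MS (10.26) and 10.32 to 11.40 in DIO-MS (11.15). DIO-MS-1, DIO-MS-4 and DIO-MS-6 lay within the range of RW-MS. Dbp fell by 1.41 ± 0.15 and by 0.46 ± 0.15, and the interaction was 0.95 ± 0.21 (1.93-fold, adjusted p = 0.033). Its call was kept in 18 of the 32 fits without 1 array. It was lost without DIO-SC-3 and DIO-SC-7 and with a replicate block. A dimmer probe set gave 1.075 ± 0.16 (adjusted p = 0.00085). In the fit to 28 arrays the interaction was 1.07, and the obese response of -0.34 was not called (adjusted p = 0.12). Of 11 clock genes that peak with Dbp, 7 fell in regular weight and 8 in obese animals (4.86% and 7.01% of all genes did), and their median interaction was 0.13. Leaving out the 4 arrays, 8 and 7 fell, when 20.5% and 15.3% of all genes were called in either direction. Tef and Nr1d2 were then called for the interaction too. The labels give no hour of necropsy.

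A further 9 genes were called outside these groups, 8 with a lower level in obese animals in air and Usp10 with a higher one. Sp5, a zinc finger factor of WNT signalling, had medians of 7.11 in RW-SC, 6.69 in DIO-SC, 7.38 in RW-MS and 7.75 in DIO-MS, with -0.41 ± 0.12 in air (adjusted p = 0.033) and 0.50 ± 0.12 in smoke (adjusted p = 0.043). Its interaction was 0.91 ± 0.16 (1.88-fold, adjusted p = 0.0076) and 0.64 without the 4 arrays. Ptpro, a receptor tyrosine phosphatase, had medians of 7.59, 6.95, 7.79 and 7.74 in the same order, and its interaction of 0.74 ± 0.16 (adjusted p = 0.033) lay in the air difference of -0.61 ± 0.11.

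Rasd2, a small GTPase, and Pold4, a subunit of DNA polymerase delta, crossed between the diets. Rasd2 had medians of 7.95, 7.53, 7.53 and 7.91 in RW-SC, DIO-SC, RW-MS and DIO-MS, falling by 0.36 ± 0.10 in regular weight animals and rising by 0.32 ± 0.10 in obese ones. Its interaction was 0.68 ± 0.14 (adjusted p = 0.03). By median Rasd2 was lower in obese animals in air and higher in smoke. Its air difference was called and its smoke difference was not, though the unadjusted interval of the latter excluded equal levels. Pold4 had medians of 9.19, 8.90, 9.05 and 9.09, falling by 0.17 ± 0.05 and rising by 0.18 ± 0.05, with an interaction of 0.35 ± 0.08 (adjusted p = 0.033). In the fit to 28 arrays the obese rise of neither was called (adjusted p = 0.16 and 0.073).

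The smoke response of Crisp3, Hhex and Haao was called in regular weight animals alone, a fall towards the obese level in air. Their obese medians rose with smoke, though no obese response was called. Crisp3, a cysteine-rich secretory protein, was dim, with medians of 3.50, 3.10, 3.21 and 3.23 in RW-SC, DIO-SC, RW-MS and DIO-MS and an interaction of 0.44 ± 0.09 (adjusted p = 0.031). Hhex, a homeobox factor, had medians of 9.23, 8.92, 8.92 and 9.12 and an interaction of 0.59 ± 0.13 (adjusted p = 0.033). Haao, an enzyme of tryptophan breakdown, had medians of 7.23, 6.69, 6.97 and 6.86 and 0.49 ± 0.11 (adjusted p = 0.049), and 0.39 without the 4 arrays (adjusted p = 0.12).

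Sstr2, a somatostatin receptor, had medians of 6.65, 6.17, 6.44 and 6.46 in RW-SC, DIO-SC, RW-MS and DIO-MS and an interaction of 0.61 ± 0.14 (adjusted p = 0.049). Usp10, a deubiquitinating enzyme, had the opposite pattern, with medians of 9.32, 9.57, 9.45 and 9.35. It was 0.23 ± 0.05 higher in obese animals in air (adjusted p = 0.0025), and its interaction was -0.37 ± 0.07 (1.3-fold, adjusted p = 0.0076), the smallest in size of the 8 below 0. In smoke the median of Usp10 was lower in obese animals. That difference was not called, though its unadjusted interval excluded 0.

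A further 71 genes were called only without the 4 arrays, 36 with an interaction above 0 and 35 below it. Of these 50 differed in air alone and 10 in smoke alone. Those named here all differed in air alone. Tifa, an adaptor of innate immune signalling, had 0.48 (adjusted p = 0.00016), against 0.74 ± 0.19 (adjusted p = 0.098) with all arrays. Cacybp, a ubiquitin ligase adaptor, had -0.61 (adjusted p = 0.0013). Egln3, an oxygen-sensing prolyl hydroxylase, had -0.81 (adjusted p = 0.0013), against -1.35 ± 0.41 with all arrays, where DIO-SC held a value of 9.78 beside a median of 6.86. Gfpt2, of hexosamine synthesis, had -0.65 (adjusted p = 0.005).

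**Figure D4:**
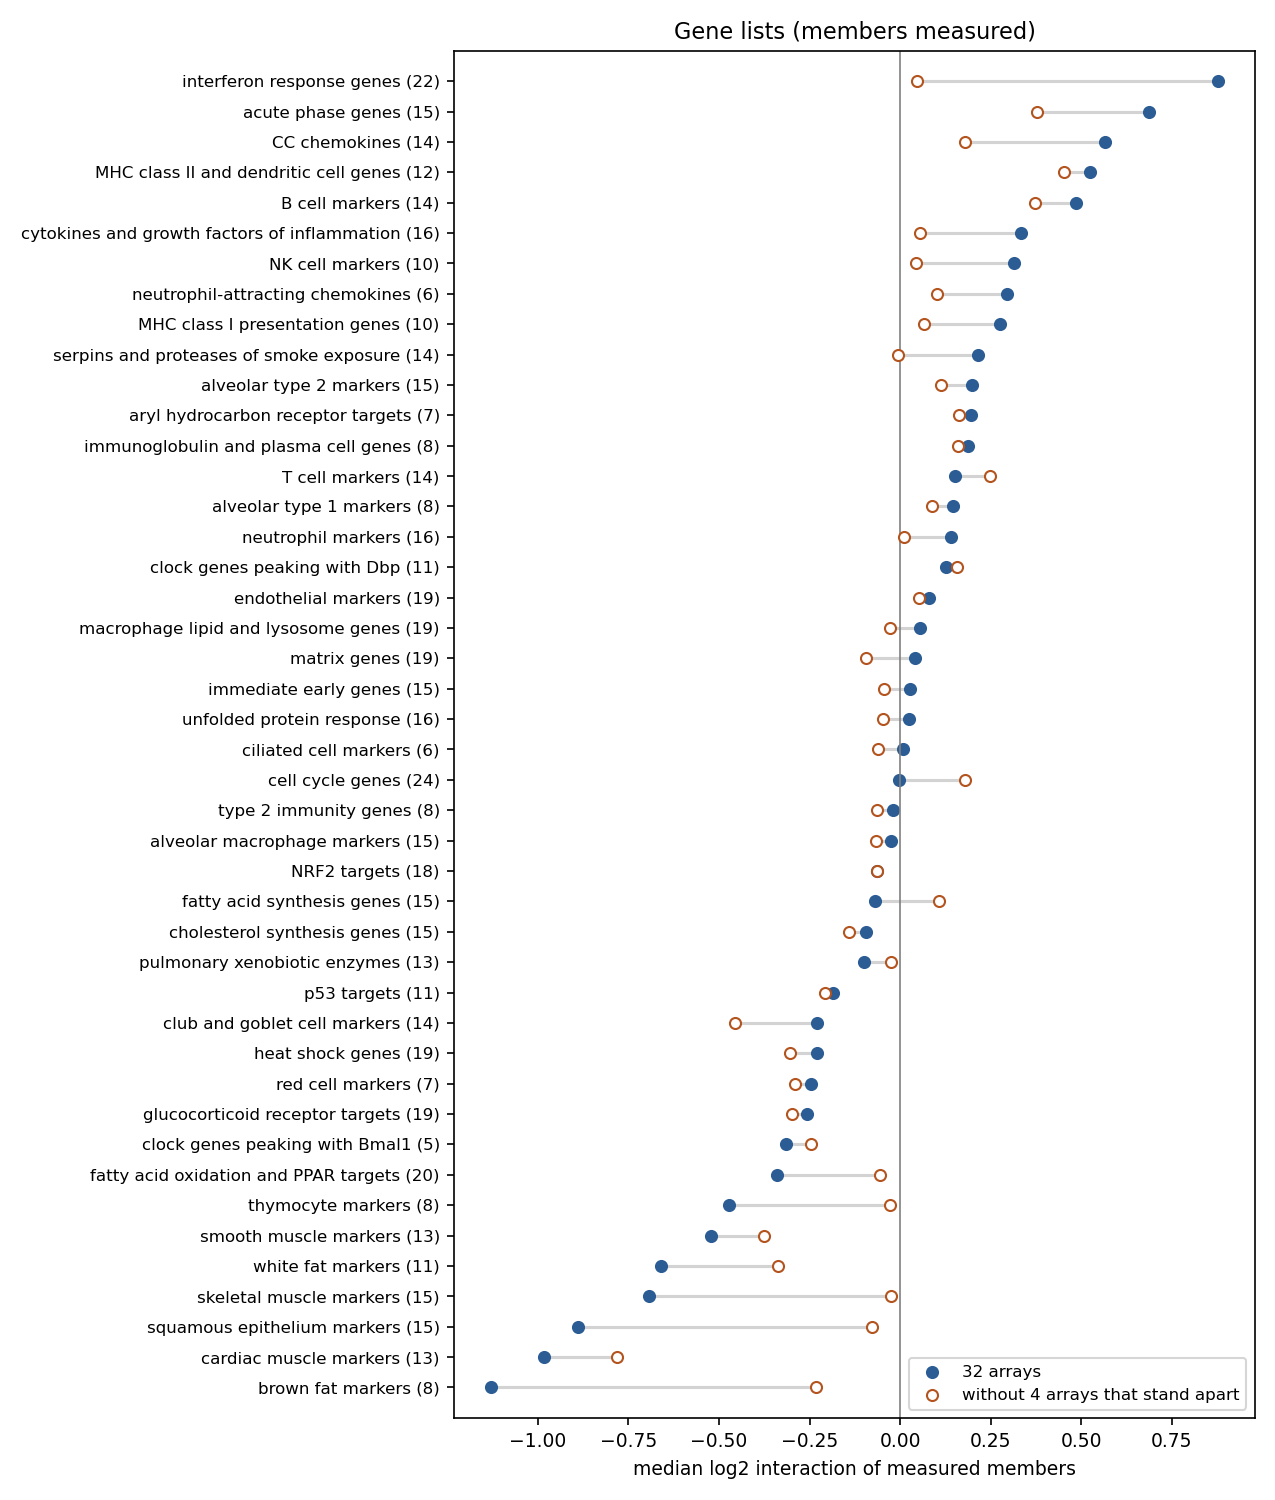
Median log2 interaction of the measured members of each list with at least 5 members (number in brackets), with 32 arrays (filled) and without the 4 arrays that stood apart (open). Medians of heat shock, class II and B cell lists stay on the same side of 0 with little change, while those of interferon, skeletal muscle, squamous epithelium and brown fat lists move most of the way to 0.

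Several lists had a large median interaction that rested on the 4 arrays. The 22 interferon response genes had a median of 0.88 with 0 called, and 0.05 without the 4 arrays. Skeletal muscle markers had -0.69 and -0.03, squamous epithelium markers -0.89 and -0.08, thymocyte markers -0.47 and -0.03, and brown fat markers -1.13 and -0.23, with 0 members called in any of them. In each of these lists the score of 1 or 2 arrays stood apart from the rest of its group. The score of RW-MS-7 for interferon response genes, 1.29, was also far above the RW-MS median of -0.12. RW-SC-4, at 0.58, was likewise above the RW-SC median of -0.29, so regular weight arrays stood apart too.

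The direction of the interaction was also described for the 3004 genes (24.2%) called for the mean of both smoke responses. This mean and the difference come from the same arrays, whose spread is not equal between the diets, so the shares are a description with no test. Of these, 1914 (63.7%) had the larger change in obese animals, with a median excess of 0.06 log2. Among the 115 genes past 2-fold, 99 (86.1%) did, with a median excess of 0.45. Leaving out the 4 arrays, the shares were 1953 of 3537 (55.2%) and 95 of 111 (85.6%), with excesses of 0.02 and 0.23. For genes called lower, 839 of 1586 (52.9%) had the larger fall in obese animals, and 926 of 1959 (47.3%) without the 4 arrays. That share was 481 of 1218 (39.5%) without DIO-MS-1 and DIO-MS-6 and 1381 of 2208 (62.5%) without DIO-SC-3 and DIO-SC-7, so the direction for falling genes rested on these arrays. Of the 3004 genes 26 were called for the interaction itself.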

How the data were processed

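RNA of 32 lungs, 8 a group, was measured with 1 array per animal. The deposited log2 signals come from RMA run by the authors, per the submitters' processing notes. Neither its version nor the set of arrays normalized at once is given in the sources used here, and RMA can shrink differences at both ends of the scale. Array medians lay between 7.83 and 7.94, and the precision is limited by the number of arrays. Of 22690 probe sets, 20380 carried 1 gene symbol, and each gene was represented by its brightest probe set (mean of 48 arrays), which left 12393 genes.

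Each gene was fitted with 4 group means over the 32 arrays by lmFit, contrasts.fit and eBayes of limma 3.58.1 under R 4.3.3, with the package data.table, version 1.17.8. Benjamini-Hochberg adjustment was made within each contrast, and every adjusted p in the text is limma's. Errors are standard errors, and intervals are unadjusted 95% intervals. A gene was called at an adjusted p below 0.05. The fit was tested on simulated data with known changes. The simulated arrays had the same spread in every group and none that stood apart, unlike the arrays here.

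Named genes were the 15 highest and 15 lowest interactions called with and without DIO-SC-3, DIO-SC-7, DIO-MS-1 and DIO-MS-6, the 5 with the lowest adjusted p of each class, up to 4 members of each list, 20 genes of earlier interest, and the 5 leading genes of those called with or without the 4 arrays alone. H2-Aa, Crisp3, Pold4 and Hhex were added, after their values were seen, so that all 35 are named. A gene that the rule names is not reported here. The members and all 45 lists were chosen with earlier results of these data known. Replicate numbers came from the titles, since the sources of RW-MS-7 and RW-MS-8 repeat other numbers. Arrays with the same number did not deviate together (mean correlation -0.02 over 48 pairs, against 0.01 over 336 other pairs), so the numbers do not pair animals. The labels give no batch or date. Alternatives were other sets of arrays, array weights, other moderation, centring, a filter on dim genes, other probe sets, a replicate block and a stricter threshold. Promoters were matched by symbol for 9887 genes. Sidestream arrays were used only to choose probe sets and in the fit to all 48 arrays.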

Additional observations from a re-analysis of the deposited data

Results flagged for a closer look

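In the 144 groups of 8 values examined, for the 35 genes and for the mean correlation with other arrays, 8 held an array set apart from the others by a large gap, and chance alone gives such a gap in about 1 of 20 groups. RW-MS-7 was the highest RW-MS array for Hspa1b (10.39, next 9.48), Hspa1a (8.38, next 7.88) and Dnaja1 (11.93, next 11.56). RW-SC-3 was the highest of its group for Saa1 (5.90, next 5.44), and RW-SC-6 the lowest for Dbp (11.15, next 11.50). DIO-MS-1 was the lowest of its group for Mrvi1 (5.46, next 5.97) and Acta2 (11.69, next 12.22), and RW-MS-5 the lowest for Saa3 (11.62, next 13.36).

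The responses of the diets differed by the test of the interaction itself in 35 genes. Above 0 it was 4.31 for Cyp1a1, 1.38 for Saa3, 1.35 for Saa1, 1.09 for Hpx, 1.08 for Fcer2a, 0.95 for Dbp, 0.91 for Sp5, 0.89 for Nr1d1 and 0.87 for Clec4n. It was 0.75 for Cp, 0.74 for Ccl9 and Ptpro, 0.73 for S100a4, 0.72 for Clec4a2, 0.69 for Ciita, 0.68 for Rasd2, 0.61 for Sstr2, 0.59 for Hhex, 0.56 for H2-DMa, 0.54 for H2-Eb1 and 0.53 for H2-Ab1. It was 0.49 for Haao, 0.48 for Btk, 0.44 for Crisp3, 0.39 for Cd74, 0.36 for H2-Aa and 0.35 for Pold4. Below 0 it was -2.12 for Hspa1b, -1.77 for Hspa1a, -1.59 for Zbtb16, -0.72 for Chordc1 and Dnaja1, -0.69 for Mrvi1, -0.66 for Acta2 and -0.37 for Usp10.

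Among the 2246 probe sets that carry no symbol or more than 1 and entered no gene, 8 were called for the interaction (limma, adjusted over these probe sets).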

How the results depend on the processing

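Counts are of genes called for the interaction, 35 as reported (27 higher, 8 lower, 25 past 1.5-fold; 27 by the air difference alone, 7 by the smoke difference alone, 1 by both in opposite directions, 0 by both in the same direction and 0 by neither). Fitting all 48 arrays gave 110 (73 higher, 37 lower, 52 past 1.5-fold; air 82, smoke 12, same direction 4, neither 11). Leaving out the 4 arrays that stood apart gave 101 (58, 43, 40; air 72, smoke 15, opposite 0, same 3, neither 11). Without DIO-SC-3 and DIO-SC-7 there were 59 (31 lower; air 44, smoke 11, opposite 0, same 1, neither 3), and without DIO-MS-1 and DIO-MS-6 49, of which 16 were lower (opposite 0, same 1, neither 1). Array weights gave 110 (57 higher, 53 lower, 39 past 1.5-fold; air 78, smoke 19, opposite 0, same 4, neither 9), and centring each array 46, of which 18 were lower (opposite 0, same 1, neither 3). With the dimmest probe set of each gene 29 were called, 25 of them among the 35, and 1 gene fell in neither class. Dnaja1, Rasd2, Ccl9, Acta2, Fcer2a, Clec4a2, Zbtb16, Cp, Sstr2 and Haao lost their calls there. Without probe sets of shared sequence 28 were called, and Rasd2, Acta2, Zbtb16, Cp, Sstr2 and Haao lost theirs. With a replicate block, in place of no pairing, 25 were called (16 higher; air 17, opposite 0, same 1, neither 1), 24 of them among the 35. At an adjusted p below 0.01, 12 were called (9 higher, 3 lower, 9 past 1.5-fold; air 7, smoke 4). Leaving out 1 array at a time gave 19 (without RW-SC-3 and without RW-MS-1) to 66 genes (without DIO-SC-7), with 13 to 42 higher, 6 to 24 lower, 13 to 39 past 1.5-fold, air 13 to 53, smoke 3 to 9, opposite 0 to 1, same 0 to 2 and neither 0 to 3. In those 32 fits 18 genes kept their call, led by Cyp1a1, H2-Ab1, Usp10, Hspa1b and Hspa1a. Acta2 changed sign, to 0.18 and not called, with its dimmer probe set and without probe sets of shared sequence. The cause of these changes was not tested, except that fewer arrays or another threshold change the test itself. The number of arrays, 8 a group, limits the precision.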
